A study of Mus musculus with 6 samples.

Results

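The proteins of the mitochondrial ribosome were followed as transcripts in WT and Pabpn1-null growing oocytes. Members were the rows whose symbol starts with Mrpl (large subunit) or Mrps (small subunit) followed by a digit, with pseudogene symbols left out. This gave 76 of the 23235 rows of the expression table, 47 Mrpl and 29 Mrps, and all 76 were among the 12523 rows with an FPKM (read fragments scaled to transcript length and library size) above 1 in at least 1 sample, which were the rows tested. The rule used names only and no measured value.

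The mammalian mitochondrial ribosome is built in the matrix from RNAs made from mitochondrial DNA and from proteins that are encoded in the nucleus, translated in the cytosol and imported. It makes the core membrane subunits of the respiratory chain and ATP synthase. Growing oocytes accumulate large numbers of mitochondria. PABPN1 is a nuclear protein that binds the poly(A) tail of newly made mRNAs.

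RNA-seq was done on 3 WT samples and 3 Pabpn1-null samples, each a pool of 10 growing oocytes from mice labelled C57BL/6 (a C57BL/6J background in the methods). Pabpn1-null oocytes, labelled PABPN1-GDF9, carried the genotype Pabpn1fl/fl;Gdf9-Cre, in which Cre driven by the oocyte-active Gdf9 promoter removes a floxed Pabpn1. WT controls were littermates, and the labels give neither a treatment nor an age. The study calls the samples biological replicates without saying that different mice gave them, and p-values therefore cover only sample-to-sample spread, which may be technical.

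Pabpn1 itself stood at 21.9, 33.4 and 21.8 FPKM in the WT samples and at 0.595, 0.878 and 1.37 FPKM in the Pabpn1-null samples, which checks the labels. Summed FPKM per sample was 676077 to 739244 in WT and 597103 to 638185 in Pabpn1-null oocytes. The study lists total reads per sample, but the number of reads behind each single value is unknown. Of the marker lists, 12 oocyte genes summed to 17706 to 20627 FPKM in WT and 18077 to 20293 FPKM in Pabpn1-null samples, although 3 of the 12 were lower (Oosp1, Figla and Dppa3) and 7 higher by limma, or 5 and 2 with the factors to the study's mean FPKM described with the counts of members. Another list, 10 granulosa cell genes, summed to 31.3 to 38.6 and 31.0 to 42.3 FPKM. Theca and stromal genes summed to at most 1.53 FPKM, endothelial genes to at most 12.2 FPKM with 2 of 6 listed at 0 throughout, and blood genes to at most 3.71 FPKM with 3 of 8 listed at 0. In pools of oocytes, fewer intact cells and less RNA per cell cannot be told apart.

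The study asked how transcript levels change when growing oocytes lack Pabpn1. In Pabpn1-null oocytes 35 of the 76 members were lower and 2 were higher (limma, two-sided, adjusted p under 0.05), against 20.2% of all tested rows lower and 27.9% higher. The members' shares were 46.1% lower and 2.63% higher, and 48.1% of all tested rows were called in either direction. The median log2 change of the members was −0.34, with an interquartile range from −0.71 to 0.0083, while the median over all tested rows was 0.094. Without adjustment, 37 members were lower and 3 higher at p under 0.05 by limma, against 2973 lower and 3939 higher of all 12523 tested rows.

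These counts depend on the scale. A single factor per sample leads from the deposited FPKM to the mean FPKM that the study lists. The fitted factors were 1, 1.42 and 1.31 in WT and 0.833 in each Pabpn1-null sample, and they lower the median log2 change of all tested rows from 0.094 to −0.36. With them 57 members were lower and 0 higher, against 35.5% of all tested rows lower and 9.40% higher, and 74 of the 76 members lay below 0. The large subunit then had 35 lower and the small subunit 22. The study reported more decreased than increased transcripts in the null oocytes. Among limma calls over all tested rows, falls outnumbered rises with these factors, but rises outnumbered falls as deposited. The background as deposited thus ran in the other direction from the study's result, and the members' contrast with it should be read with that in mind. Values below are as deposited unless these factors are named.

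The values of the genotypes did not overlap, with every Pabpn1-null sample below every WT sample, for 37 members, against 24.7% of all tested rows. They did not overlap in the other direction for 5 members (Mrpl27, Mrps2, Mrps27, Mrps26 and Mrpl38), against 33.3% of all tested rows. The ratio of the means of FPKM + 1 was under 0.5 for 6 members (Mrps10, Mrpl33, Mrps14, Mrpl40, Mrpl39 and Mrps18c), against 6.83% of all tested rows, and over 2 for 0 members, against 11.3%.

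The largest fall was that of Mrps10, a protein of the small subunit head. It stood at 41.6, 31.5 and 18.2 FPKM in WT and at 9.67, 7.96 and 8.99 FPKM in Pabpn1-null oocytes. All Pabpn1-null samples lay well below the lowest WT sample, although the WT samples themselves spread widely. The log2 change was −1.60 ± 0.26 (SE, limma, adjusted p = 0.00104), and without single samples it ranged from −1.92 to −1.34.

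Mrpl33, a small protein of the large subunit, stood at 193, 214 and 194 FPKM in WT and at 92.0, 76.7 and 95.1 FPKM in Pabpn1-null oocytes. The groups were far apart relative to their spread (log2 change −1.18 ± 0.13, SE, limma, adjusted p = 0.000165). Exons of Mrpl33 overlap those of Bre on the same strand in the annotation, so reads of the pair may not be fully separated.

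Mrps14, another head protein and one that the study also assayed by RT-qPCR, stood at 102, 93.5 and 97.4 FPKM in WT and at 41.7, 38.6 and 48.0 FPKM in Pabpn1-null oocytes. The 3 WT samples were tight and none of the Pabpn1-null samples came near them (log2 change −1.18 ± 0.14, SE, limma, adjusted p = 0.000187). Mrpl40, of the central protuberance, was at 153, 132 and 137 FPKM against 63.1, 61.9 and 66.9 FPKM, a log2 change of −1.12. Mrpl39, a protein of the large subunit without a bacterial counterpart, was at 64.7, 54.0 and 67.1 FPKM against 28.9, 28.9 and 28.0 FPKM, a log2 change of −1.08. For both, every Pabpn1-null sample lay far below the lowest WT sample, and the 3 Pabpn1-null values were close to each other.

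The next 3 falls in order of size were in the small subunit, closely followed by Mrps33 (−0.97), Mrpl53 (−0.95), Mrpl35 (−0.94) and Mrpl32 (−0.92). Mrps18c, one of 3 mammalian versions of the bacterial S18 protein, was at 280, 290 and 281 FPKM in WT and 143, 119 and 155 FPKM without Pabpn1 (log2 change −1.03). Mrps25 was at 57.4, 55.2 and 60.0 FPKM against 28.8, 27.4 and 29.4 FPKM (log2 change −0.99), and its exons overlap Nr2c2 on the opposite strand. Mrps23 was at 78.7, 61.4 and 95.1 FPKM against 38.5, 32.2 and 46.5 FPKM (log2 change −0.98). The groups were separate for each of these, with the widest WT spread in Mrps23.

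**Figure D1:**
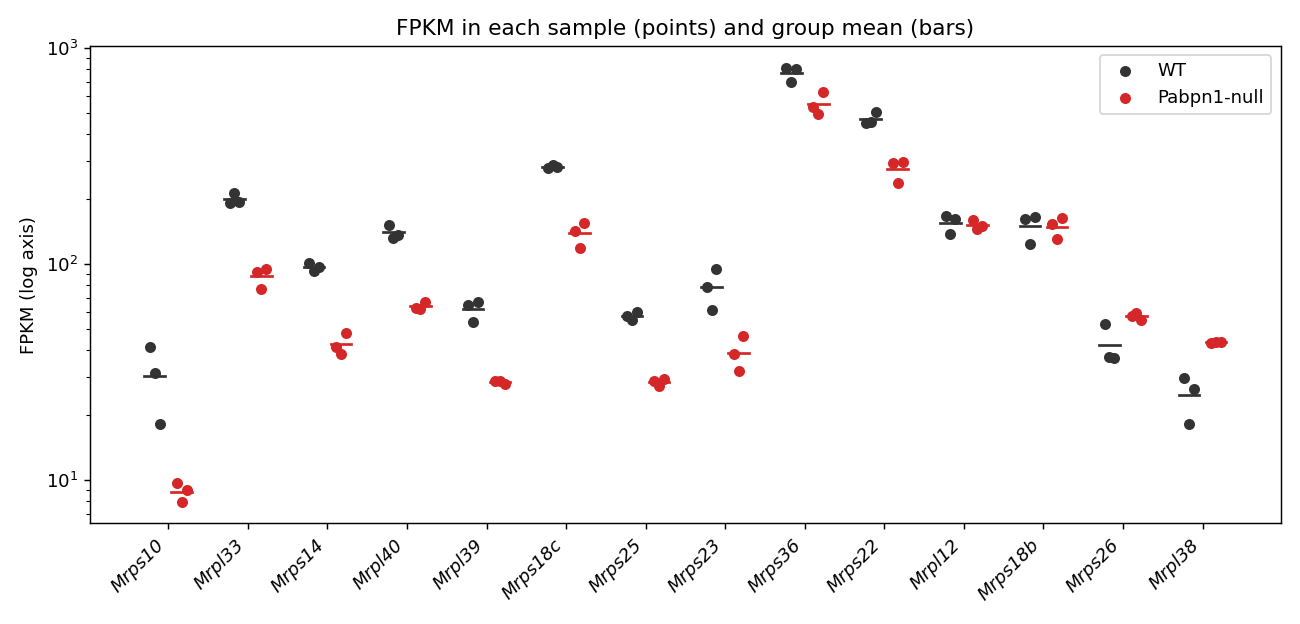
FPKM (log axis) of 14 members in each WT (dark) and Pabpn1-null (red) sample, with a bar at each group mean. The 8 members with the largest falls are on the left, and Mrps26 and Mrpl38, the 2 called higher, are on the right, where the Pabpn1-null samples lie above all WT samples as deposited; with the factors that lead to the study's mean FPKM the difference of Mrps26 turned to −0.094 and neither was called.

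The 2 members called higher were Mrpl38, of the central protuberance, and Mrps26, of the small subunit. Mrpl38 stood at 29.8, 18.2 and 26.5 FPKM in WT and at 43.1, 43.7 and 43.9 FPKM in Pabpn1-null oocytes. The Pabpn1-null samples were almost identical and lay above the whole WT range (log2 change 0.81 ± 0.19, SE, limma, adjusted p = 0.0057). With the factors to the study's mean FPKM its log2 change was 0.27 and it was not called (adjusted p = 0.276).

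Mrps26 stood at 52.9, 37.1 and 36.9 FPKM in WT and at 57.8, 59.7 and 55.1 FPKM in Pabpn1-null oocytes. The lowest Pabpn1-null sample lay only slightly above the highest WT sample (log2 change 0.45 ± 0.17, SE, limma, adjusted p = 0.0463). Leaving out WT replicate 1 kept the call (adjusted p = 0.0119), but leaving out any other sample ended it (adjusted p 0.0879 to 0.124), and the log2 change was −0.094 with the factors to the study's mean FPKM. Exons of Mrps26 overlap 4930473A02Rik on the opposite strand.

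Poly(A) tails are added downstream of a signal hexamer, and the ends of the members with the 4 largest falls and of both members called higher are shown so that the signals can be compared. The hexamer, read from the last 50 bases of the annotated mm9 transcript, is in capitals. Mrps10 is at chr17:47515598-47515627 (plus strand), Mrpl33 at chr5:31924979-31925008 (plus), Mrps14 at chr1:162132261-162132290 (plus), Mrpl40 at chr16:18872113-18872142 (minus), Mrps26 at chr2:130394401-130394430 (plus) and Mrpl38 at chr11:115993138-115993167 (minus), each within the 3′UTR.
Mrps10: cccaaatgctggATTAAAagtgtgtccacc
Mrpl33: tttataggccttAATAAAaaaatatcaaaa
Mrps14: gctatgttcttaAATAAAaaccagtggagt
Mrpl40: ttgtaatcaacaAATAAAgggtaatcaaaa
Mrps26: ctcaaataatgtAATAAAagttgtaaactt
Mrpl38: cgattctatgtgAATAAAatacttttttcc
Members on both sides as deposited thus carried AATAAA, and the member with the largest fall had the variant ATTAAA. Over all 76 members, 57.9% had AATAAA, 15.8% had ATTAAA alone and 26.3% neither, against 63.3% with AATAAA and 21.7% with neither among 11372 tested coding rows with a 3′UTR. Among the 35 lower members 21 had AATAAA and 7 had ATTAAA, and among the other 41 members 23 and 5 did.

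The changes nearest to 0 belonged to 4 members. Mrps18b, another version of the bacterial S18 protein, was at 162, 124 and 166 FPKM in WT and at 154, 131 and 163 FPKM without Pabpn1, and its log2 change was −0.0042. Mrpl12, a stalk protein that also binds the mitochondrial RNA polymerase, was at 167, 139 and 162 FPKM against 161, 145 and 150 FPKM, and its log2 change was −0.032. The genotypes overlapped for both of these. Mrps9, a head protein, had a log2 change of −0.036 and Mrpl46, of the central protuberance, of 0.046, and neither was called. These values hold as deposited. Over 16 alternative settings of the fit, filter, scale or samples, the lowest log2 changes of the 4, in the order named, were −0.56, −0.59, −0.57 and −0.51. Mrps18b, Mrpl12 and Mrps9 were each called lower in 1 of these settings, and Mrpl46 in 0.

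Near the threshold, Mrps26 and Mrpl24 were just inside it and Mrps17 and Mrpl41 just outside. Mrpl24, at the mouth of the exit tunnel, was at 162, 142 and 169 FPKM in WT against 124, 97.5 and 135 FPKM in Pabpn1-null oocytes (limma, adjusted p = 0.0466). Mrps17, of the small subunit body, was at 174, 153 and 161 FPKM against 130, 108 and 147 FPKM (limma, adjusted p = 0.0706), again without overlap. Mrpl41 was at 23.6, 20.5 and 16.8 FPKM against 14.5, 12.6 and 17.2 FPKM (limma, adjusted p = 0.0789), with overlap.

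**Figure D2:**
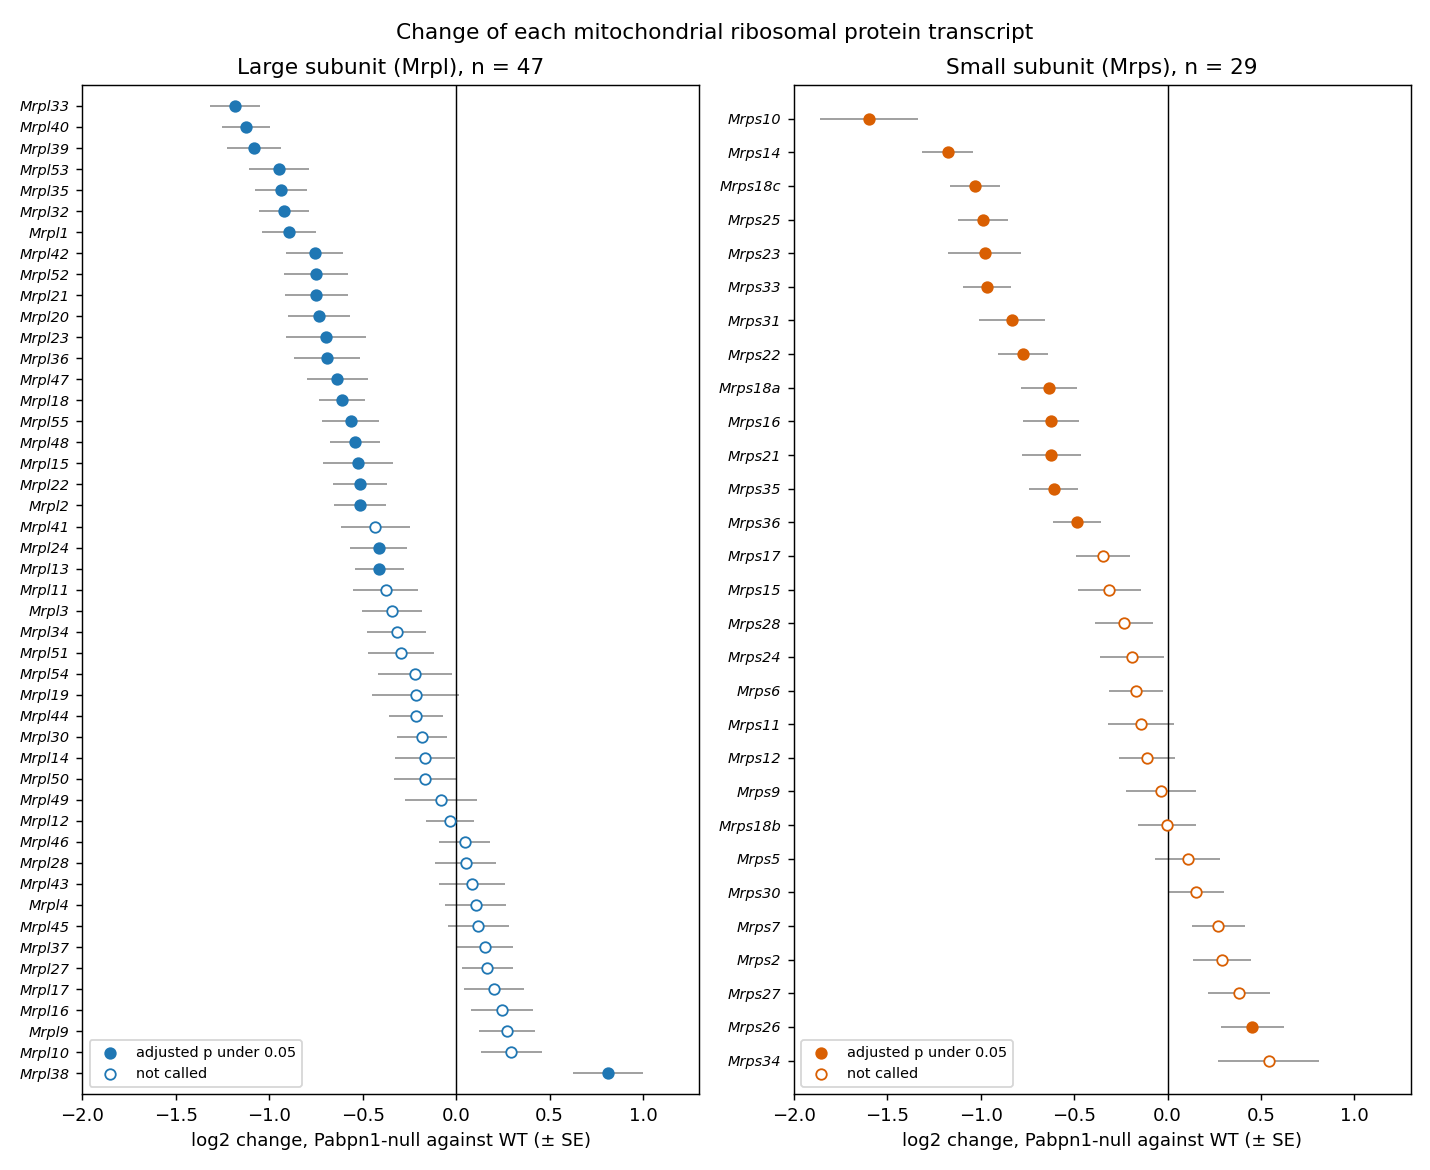
Log2 change (± SE) of each of the 47 Mrpl and 29 Mrps transcripts, Pabpn1-null against WT, ordered by size, with filled points for adjusted p under 0.05. Filled points run from −1.60 (Mrps10) to −0.41 (Mrpl13) on the negative side, while Mrpl38 (0.81) and Mrps26 (0.45) are the 2 on the positive side, neither of which was called with the factors to the study's mean FPKM, where Mrps26 was at −0.094.

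The subunits gave similar counts. Of 47 large subunit transcripts, 22 were lower and 1 was higher, with a median log2 change of −0.38. Of 29 small subunit transcripts, 13 were lower and 1 was higher, with a median of −0.31. The difference between the subunits was not tested. Counting Mrps18a and Mrps30 with the large subunit, where the mammalian structure holds them, and leaving out Mrps36, which is known as a part of the oxoglutarate dehydrogenase complex, gave 23 of 49 lower and 11 of 26 lower.

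Levels of the members were far from equal. FPKM is scaled to transcript length, but whether an effect of length on the levels remains was not tested. In tiers by transcript length, from shortest to longest, the median WT levels of the members were 120, 86.2 and 42.3 FPKM. Levels of different members are therefore compared as a description only. Mean WT levels ran from 4.45 FPKM for Mrpl19 to 773 FPKM for Mrps36, a 173-fold range. Leaving out Mrps36, which is not counted as a ribosomal subunit by structure, the highest was Mrps33 at 646 FPKM. The order of the members was largely kept between genotypes (Spearman rho 0.937 between the mean levels of the 76 members, which share libraries).

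The members with the highest levels fell. Mrps36 was at 815, 703 and 800 FPKM in WT and at 534, 498 and 626 FPKM without Pabpn1 (log2 change −0.49). Mrps33, found in the mitochondrial but not the bacterial small subunit, was at 647, 637 and 654 FPKM against 332, 285 and 380 FPKM (log2 change −0.97). Mrps21, counterpart of bacterial S21, was at 555, 457 and 435 FPKM against 325, 255 and 363 FPKM (log2 change −0.62). None of these overlapped between the genotypes. With quantile normalization Mrps36 (adjusted p = 0.665) and Mrps21 (adjusted p = 0.107) were not called by limma, and without Pabpn1-null replicate 1 Mrps36 was not called either (adjusted p = 0.0556).

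In the large subunit, Mrpl48, of the central protuberance, was at 527, 464 and 547 FPKM in WT against 367, 305 and 387 FPKM without Pabpn1 (log2 change −0.54). It was not called with quantile normalization (adjusted p = 0.238), and its exons overlap other genes on both strands. Mrpl32, whose maturation depends on the m-AAA protease, was at 397, 401 and 440 FPKM against 237, 186 and 235 FPKM (log2 change −0.92). Mrpl18 of the central protuberance was at 327, 303 and 332 FPKM against 227, 190 and 214 FPKM (log2 change −0.61). In all 3 the groups were separate.

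Members were also split into 3 tiers by mean level over the 6 samples. In the top tier (102 to 663 FPKM) 18 of 26 members were lower and 0 higher, with a median log2 change of −0.59. In the middle tier (45.7 to 98.1 FPKM) 11 of 26 were lower and 1 higher, with a median of −0.22. In the bottom tier (4.03 to 45.3 FPKM) 6 of 24 were lower and 1 higher, with a median of −0.19. The counts lower thus followed the level, and the medians did so as deposited. From the top to the bottom tier they were −0.35, −0.20 and −0.35 with quantile normalization and −0.52, −0.12 and −0.18 without WT replicate 1, so that the middle tier fell least, and the middle and bottom tiers were level without Pabpn1-null replicate 1 (both −0.27). All tested rows in the same level ranges had 45.4%, 27.7% and 18.8% lower, against 69.2%, 42.3% and 25.0% of the members. Of these rows 16.7%, 30% and 32.6% were higher, against 0%, 3.85% and 4.17% of the members. Their median log2 changes were −0.32, 0.020 and 0.19, so rows in the range of the top tier also fell at the median. The rank correlation of log2 change with mean level was −0.278 over the 76 members and −0.098 over 11553 tested coding rows, given as a description since the level and the change come from the same libraries.

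**Figure D3:**
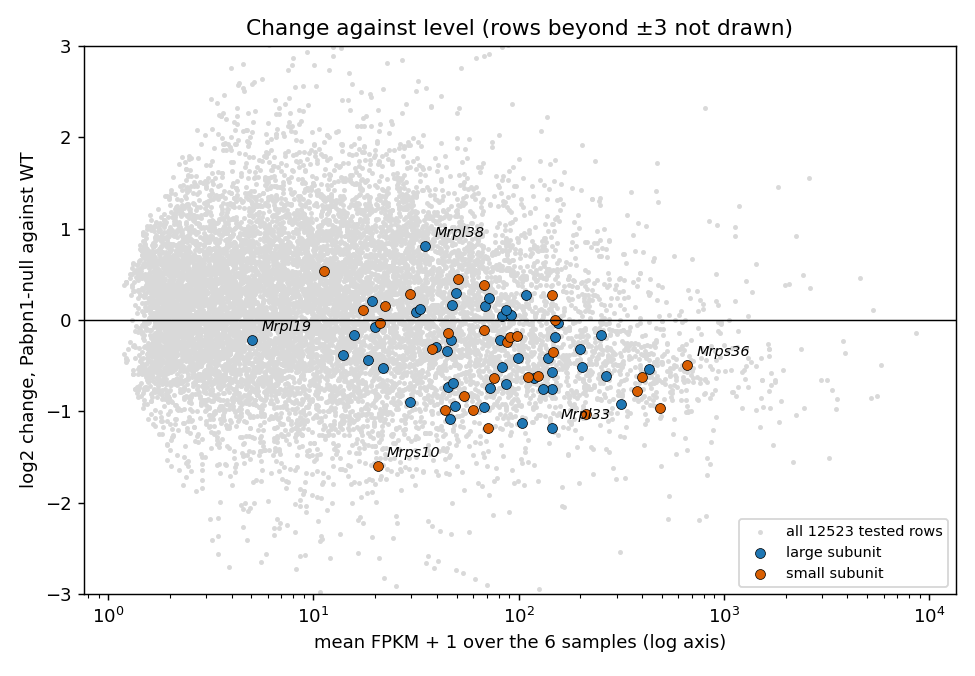
Log2 change against mean FPKM + 1 over the 6 samples (log axis) for the 76 members, coloured by subunit, over all 12523 tested rows in grey. Of the 76 members 57 lie below 0, and Mrpl38 (0.81) is the highest member.

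Groups of members by position in the ribosome gave uneven counts, each on few genes. The central protuberance, a landmark at the top of the large subunit, had Mrpl40, Mrpl18 and Mrpl48 lower and Mrpl38 higher, while Mrpl46 was not called. Of 6 members around the exit tunnel, through which the new chain leaves, Mrpl22 (−0.52), Mrpl23 (−0.70), Mrpl24 (−0.41) and Mrpl47 (−0.64) were lower, and Mrpl17 (0.20) and Mrpl45 (0.12) were not called. Mrpl45 is known as the anchor of the ribosome at the inner membrane. Leaving out WT replicate 1 or Pabpn1-null replicate 2 ended the calls of Mrpl22, Mrpl23 and Mrpl24 (limma, adjusted p over the samples left out in turn up to 0.0528, 0.0779 and 0.147). For Mrpl23 so did leaving out WT replicate 2 or Pabpn1-null replicate 1, and for Mrpl24 WT replicate 3 or Pabpn1-null replicate 1. With no filter or with the same total FPKM, 2 of the 6 were lower, and neither Mrpl23 nor Mrpl24 was called. Mrpl24 also lost its call with quantile normalization and with no trend.

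Around the peptidyl transferase centre, where peptide bonds form, 1 of 5 members was lower. This was Mrpl2, at 99.3, 84.5 and 107 FPKM in WT and 68.7, 69.6 and 63.5 FPKM without Pabpn1 (log2 change −0.51, adjusted p = 0.0522 by limma without Pabpn1-null replicate 3), while Mrpl3 (−0.34), Mrpl4 (0.11), Mrpl16 (0.24) and Mrpl27 (0.17) were not called. Of the L7/L12 stalk, which recruits the elongation factors, 0 of 3 members were called by limma and 0 had an unadjusted p under 0.05. These were Mrpl10 (0.30), Mrpl11 (−0.38) and Mrpl12 (−0.032). With median-of-ratios scaling or quantile normalization 1 of the 3 was called lower, with the factors to the study's mean FPKM 2 were called lower, and with the same total FPKM 1 was called higher. With the same total FPKM 2 of the 5 members around the peptidyl transferase centre were called higher and 0 lower, and with the factors 2 lower and 0 higher. Mrpl1, of the L1 stalk on the side where used tRNA leaves, was at 35.9, 36.8 and 39.3 FPKM against 19.2, 18.5 and 21.2 FPKM, a log2 change of −0.90.

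In the small subunit head, Mrps10 and Mrps14 were lower, while Mrps7 (0.27), Mrps9 (−0.036) and Mrps24 (−0.19) were not called. On the platform, Mrps18c and Mrps21 were lower, and Mrps6 (−0.17), Mrps11 (−0.14) and Mrps15 (−0.31) were not called. In the body and decoding region, 1 of 4 was lower, Mrps16 (−0.62), a protein whose loss in humans impairs mitochondrial translation. Mrps5 (0.11), Mrps12 (−0.11) and Mrps17 (−0.35) were not called. With the factors to the study's mean FPKM 4 of the 5 head, all 5 platform and 3 of the 4 body members were lower. Mrps22, a mitochondria-specific protein linked in humans to ovarian insufficiency, was chosen for naming after its values were seen. It was at 454, 457 and 508 FPKM in WT and at 296, 237 and 299 FPKM without Pabpn1 (log2 change −0.77). The 13 lower members not described singly ran from Mrpl53 (−0.95) to Mrpl13 (−0.41). Among them, leaving out WT replicate 1, Pabpn1-null replicate 1 or Pabpn1-null replicate 2 ended the calls of Mrpl13 and Mrpl15, and for Mrpl15 (−0.53) so did leaving out WT replicate 2 or Pabpn1-null replicate 3 (limma, adjusted p up to 0.0992 and 0.145). Neither was called with the same total FPKM, nor was Mrpl13 with no trend or Mrpl15 with no filter.

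Members were also grouped by whether bacteria have a counterpart. Of 44 with a bacterial counterpart 20 were lower and 0 higher, and of 29 without one 13 were lower and 2 higher, with medians of −0.34 and −0.30. A further 3 members were not classified, of which 2 were lower and 0 higher, with a median of −0.49. The 29 include Mrps18a (−0.63, lower) and Mrps18b (−0.0042, not called). Both are versions of the bacterial S18 protein, so the split is not strict. Whether the groups differ was not tested.

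Sample by sample, the 76 members summed to 10258, 8901 and 9829 FPKM in WT and to 7165, 6110 and 7468 FPKM in Pabpn1-null oocytes. The groups did not overlap. As a share of all FPKM this was 1.39%, 1.32% and 1.36% against 1.15%, 1.02% and 1.17%, so the fall exceeded that of the summed FPKM itself. The ratio of the summed large to the summed small subunit FPKM was 1.18, 1.14 and 1.20 in WT and 1.28, 1.25 and 1.20 in Pabpn1-null oocytes, with replicate 3 of both genotypes nearly equal.

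Some samples stood apart across the members as a set. Pabpn1-null replicate 2 was the lowest Pabpn1-null sample for 65 of 76 members, and WT replicate 2 the lowest WT sample for 51. The median difference of the members from the WT mean on the log2 scale was −0.57 in Pabpn1-null replicate 2, against −0.30 and −0.22 in the others, and −0.11 in WT replicate 2, against 0.10 and 0.037. Without Pabpn1-null replicate 2, 30 members were lower, with a median log2 change of −0.24, and without WT replicate 2, 34 were lower, with a median of −0.42. The median coefficient of variation of the members was 12.6% in WT and 11.3% in Pabpn1-null samples.

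**Figure D4:**
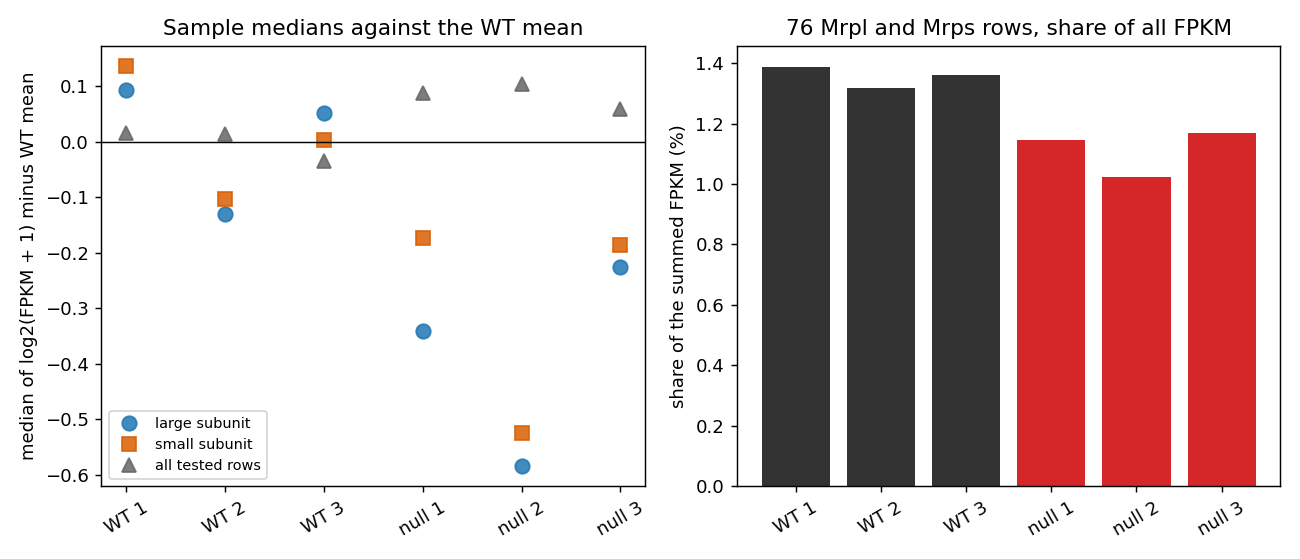
Left, median over the 47 Mrpl, the 29 Mrps and all tested rows of log2(FPKM + 1) minus the WT mean, per sample. Right, summed FPKM of the 76 members as a share of all FPKM per sample, 1.32% to 1.39% in WT and 1.02% to 1.17% in Pabpn1-null oocytes. The all-row medians stay near 0 (−0.034 to 0.10) while both subunits lie lowest in Pabpn1-null replicate 2.

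Members were further split into 3 tiers by the GC content of the transcript. With the lowest GC content 16 of 26 were lower (median log2 change −0.59), in the middle tier 12 of 26 (−0.39) and with the highest GC content 7 of 24 (−0.18). The rank correlation of log2 change with GC content was 0.351 over the 76 members and 0.132 over the 11553 tested coding rows. For transcript length it was 0.265 and 0.145, for coding length 0.367 and 0.214, and for 3′UTR length 0.14 and 0.043. These are descriptions across genes of the same libraries, and genes are not independent replicates.

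Promoters of many genes for mitochondrial proteins hold the motif CCGGAAG, to which ETS factors such as GABPA bind. The motif was searched on both strands in RefSeq promoters (GRCm38.p6, 300 bases around each start), of which 67 members had one. It was found in 24 of them (35.8%), against 19.6% of 8888 tested rows and 9.93% of all 27025 genes with a promoter. It was found in 14 of 32 lower members and in 10 of 35 others. The sites below have the motif or its reverse complement CTTCCGG in capitals. They are from Mrpl33 and Mrps22, called lower, and from Mrps26, called higher as deposited. With the factors to the study's mean FPKM Mrps26 was at −0.094 and was not called. Whether the motif goes with the direction of change was not tested. Mrpl33 is at chr5:31613940-31613962 (plus), Mrps22 at chr9:98601676-98601698 (minus) and Mrps26 at chr2:130563735-130563757 (plus) in GRCm38.p6.
Mrpl33: cgcatgccCCGGAAGtagtcgtt
Mrps22: ctctcgagCCGGAAGttgctcta
Mrps26: cgcggccaCTTCCGGgccgggcg
Each lay within 14 bases of the annotated start, and a match is a description of the letters, not of a bound factor.

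Exons of 6 members overlapped a gene on the same strand and of 22 a gene on the opposite strand in the annotation. The counting was not stated to use strand, so reads of such pairs may not be separated. For 16 members a coding gene started within 1000 bases in the opposite direction.

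Lists of other genes of mitochondrial translation were counted beside the members. Of 7 ribosomal proteins that do not carry the Mrpl or Mrps name, Chchd1 (−0.77), Aurkaip1 (−0.64), Ict1 (−0.64) and Dap3 (−0.45) were lower, and Ptcd3 (1.08) and Gadd45gip1 (0.86) were higher, both losing the call with the factors to the study's mean FPKM. Of 18 translation factors 1 was lower and 5 were higher as deposited, but 8 were lower and 1 higher with those factors, where 35.5% of all tested rows were lower and 9.40% higher. Slirp, a partner of the RNA-binding protein Lrpprc, was lower (−1.30). The elongation factor Gfm1 (0.97) and the recycling factor Gfm2 (1.53) were higher, and Gfm2 kept its call with all alternatives while Gfm1 lost it with the factors. Dap3 lost its call in 6 of 16 alternatives.

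Of 26 assembly and rRNA maturation genes 4 were lower (15.4%) and 9 higher (34.6%), near the 20.2% and 27.9% of all tested rows. With the factors 10 were lower (38.5%) and 0 higher, and the share lower was again near that of all tested rows (35.5%). Grsf1 (−0.87) and Ngrn (−0.49) led the lower and Dhx30 (1.23) and Gtpbp6 (0.86) the higher. Of 13 genes of mitochondrial RNA synthesis and processing 1 was lower, Rexo2 (−0.86), and 7 were higher, led by Elac2 (1.93) and Supv3l1 (1.05), against 3 lower and 1 higher with the factors. Of 18 tested aminoacyl-tRNA synthetase genes 1 was lower, Rars2 (−0.40), and 10 were higher, led by Pars2 (1.21) and Sars2 (1.12), against 3 lower and 1 higher with the factors. Of 3 subunits of the amidotransferase that completes glutaminyl-tRNA, Gatb (0.64, listed as Pet112l) was higher, and 0 were called with the factors. Of the higher genes named here, Elac2 and Pars2 kept their calls with the factors, and Dhx30, Gtpbp6, Supv3l1 and Sars2 did not. Rars2 and Ngrn lost theirs in 7 and 4 of 16 alternatives. The cytosolic ribosomal proteins had 47 of 82 lower (57.3%) and 0 higher, with a median of −0.47. With quantile normalization 19 were lower and 4 higher. With the factors 77 were lower (93.9%, against 75% of the members) and 0 higher, with a median of −1.03.

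**Figure D5:**
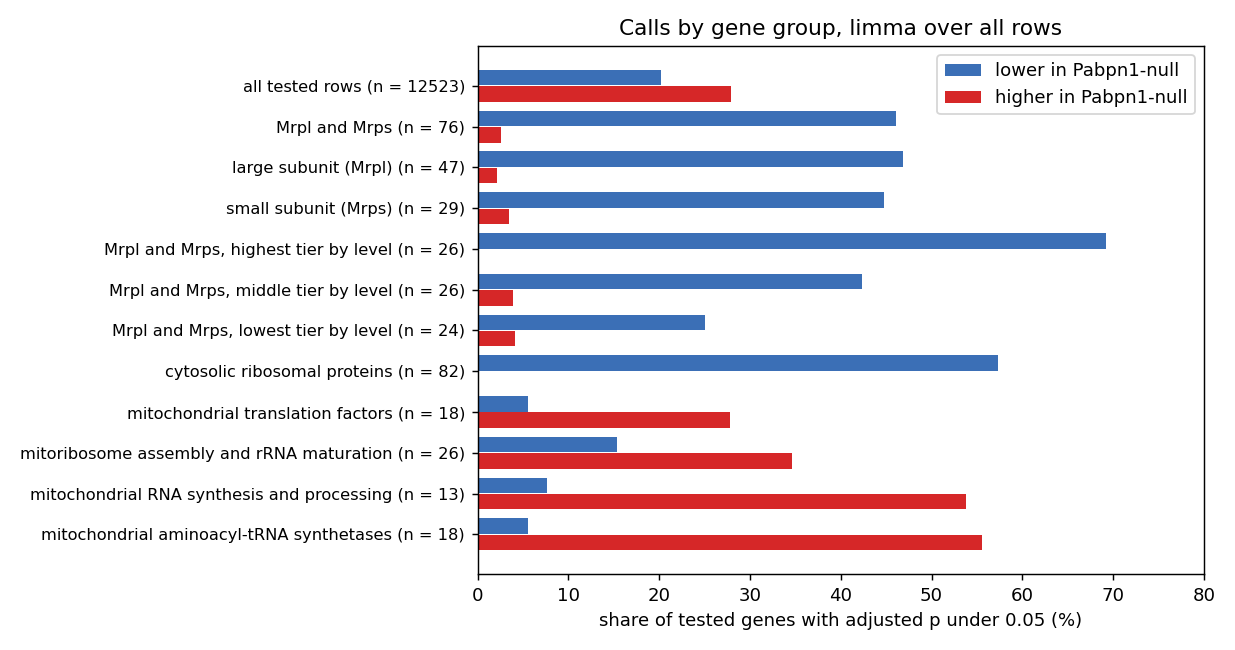
Share of tested genes lower (blue) and higher (red) in Pabpn1-null oocytes by limma for the Mrpl and Mrps rows, their subunits and their tiers by level, beside all tested rows and other gene groups. The Mrpl and Mrps rows have 46.1% lower and 2.63% higher, against 20.2% and 27.9% of all tested rows; the higher shares of the other mitochondrial lists were not kept with the factors to the study's mean FPKM.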

How the data were processed

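Growing oocytes of both genotypes were sequenced after oligo-dT reverse transcription, which is primed on poly(A) tails. The study reported shorter tails in Pabpn1-null oocytes for the transcripts it assayed. An effect of tail length on the measured levels was not tested. The authors used TopHat2 2.1.1 to map reads to mm9 and Cufflinks 2.2.1 with UCSC gene models to turn uniquely mapped reads into FPKM. The deposited FPKM values carry an added 1, which was subtracted. The study's methods name a further ERCC spike-in normalization, and whether the deposited values carry it is not given in the sources used here. Factors fitted here to 1999 rows take the deposited FPKM to the study's listed mean FPKM almost exactly (median relative error 6.38e-07 in WT), so the counts with these factors are on the scale of those means. Whether they are the spike-in factors is not given either. Columns were matched to samples by name, and WT was compared with Pabpn1-null.

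The 12523 rows in which 1 or more samples had FPKM above 1 entered a limma 3.58.1 fit in R 4.3.3 on log2(FPKM + 1), with genotype as its single term and eBayes run with trend. The p-values were adjusted by Benjamini-Hochberg across all of them, and 0.05 was the threshold. A fold change on this scale understates the change of low genes. The study lists total reads and mapping rates per sample, with the fewest reads in WT replicate 1. The number of reads behind each single value is not given, so precision is given as the spread of 3 samples. limma was tested on simulated data. Transcript features came from GENCODE vM1 (mm9).

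Named were the members called higher, the 8 largest falls, the 4 changes nearest 0, the 3 members with the highest WT level in each subunit, those nearest the threshold, Mrps14, the position groups, and up to 2 rises and 2 falls of each other list. The members and lists were chosen with earlier results of these data known. The tiers by level, GC content and transcript length and the sequence searches were added after seeing the values. Alternatives were another pseudocount, filters, scalings, eBayes settings, a replicate block and leaving out each sample. Transcripts of the mitochondrial genome were not analysed here.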

Additional observations from a re-analysis of the deposited data

How the results depend on the processing

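The counts of members lower kept their size under most alternatives. With the factors that lead from the deposited FPKM to the study's mean FPKM, 57 members were lower and 0 higher (limma, 0 also at an unadjusted p under 0.05), with 35 large and 22 small subunit members lower; all tested rows then had 35.5% lower, 9.40% higher and a median of −0.36, and the members lay 0.53 below it. The shift to the same total FPKM moved the all-row median to 0.25 and gave 30 members lower and 10 higher. Relative to the all-row median, the members' median was lower by 0.30 to 0.53 across the alternatives. Of all calls, 57.9% were higher as deposited, 70.9% with the same total, 50.4% with median-of-ratios scaling, 48.9% with quantile normalization and 20.9% with those factors.

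Members called higher numbered 1 with no filter, with median-of-ratios scaling and with no trend, and 1 to 4 without single samples. Leaving out samples gave 30 to 35 members lower. Of 35 lower calls, 26 held in all 16 alternatives, and of 2 higher calls 0 did. Of the other genes of mitochondrial translation (lists of 7, 18, 26, 13, 18 and 3 tested) 11 were lower and 34 higher. All tested rows had 20.2% lower and 27.9% higher. With the same total 6 were lower, against 14.2% of all tested rows. With the factors 29 were lower and 3 higher, against 35.5% and 9.40% of all tested rows. Without single samples 6 to 15 were lower, against 14.9% to 22.2% of all tested rows. With these factors 17 of the 19 members with a positive log2 change turned negative, among them Mrps26 (−0.094) and Mrpl28 (−0.50, against 0.051), which was then called lower, while Mrpl38 and Mrps34 stayed positive. The replicate block gave 36 members lower and 2 higher. The correlations of same-numbered samples were −0.014, −0.015 and 0.060, so no pairing by number was seen. Whether same-numbered samples share a litter or a batch was not tested.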
